A study of Mus musculus with 6 samples.

Results

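The receptors of leukaemia inhibitory factor (LIF) and interleukin-6, with the kinases and the transcription factor they act through, were measured in hearts of mice given the proteasome inhibitor carfilzomib. The 8 genes were Lifr, Il6st, Osmr, Il6ra, Jak1, Jak2, Stat3 and Socs3, each found as 1 row by its symbol among 26835 genes. Lifr was chosen by its own levels, which were higher in both carfilzomib groups than in control, so its difference from control is described without a test. The other 7 genes are its partners in the pathway.

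Cytokines of this family share the subunit gp130, encoded by Il6st. LIF and cardiotrophin-1 join gp130 to the LIF receptor, oncostatin M joins it to the oncostatin M receptor, and interleukin-6 first binds its own receptor. Janus kinases bound to these receptors phosphorylate STAT3, which enters the nucleus and switches on target genes, among them Socs3, whose product binds the receptor complex and damps the signal. In the heart the pathway is known for the survival and growth of cardiomyocytes and for the acute-phase response to injury.

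All 6 libraries came from hearts of C57BL/6 mice aged 7 to 8 weeks, weighing about 20 g and labelled wild type, with 2 libraries in each of 3 groups. CFZ_EA mice received carfilzomib at 8 mg/kg by intraperitoneal injection and electroacupuncture, a current passed through needles, at the acupoint PC6. CFZ mice received carfilzomib at 8 mg/kg alone, and control mice received 10% DMSO by the same route. Days 0, 2, 4 and 6 are listed for every library without an event tied to each, and the part of the heart is not given. Nothing in the labels says that replicates were separate mice, so p-values reflect only how far these samples scatter, which may be technical scatter.

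Total estimated counts ran from 50013990 to 75742448 per library. Control replicate 2 stood apart from the other libraries: its score on the first principal component (44.7% of the variance of log2 CPM) was 44.4, and those of the other 5 libraries were -18.1 to -2.69. Its summed fibroblast and macrophage markers were 1036 and 838 FPKM (fragments scaled by gene length and library size). In the other 5 libraries the fibroblast sum was 127 to 203 FPKM and the macrophage sum 215 to 287 FPKM. Where leaving it out turned the direction of a fold change against control given here, the value without it is given too. Cardiomyocyte markers summed to 14357 to 16125 FPKM, and 0 of 7 were at 0 in any library. Genes with a mean of at least 1 FPKM over the 6 libraries, 10329 in all, were tested with edgeR, and a gene was called where its Benjamini-Hochberg adjusted p was under 0.05.

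Lifr lies at chr15:7090614-7197489 on the forward strand of GRCm38 (ENSMUSG00000054263), and its transcripts begin at several places. RefSeq lists a pair of starts, 38.958 kb and 49.928 kb downstream of the first base of the gene model, and 3 of the 8 GENCODE M21 transcripts begin within 100 bases of each. The genomic sequence upstream of both starts (RefSeq, GRCm38.p6, forward strand, in lower case) is shown because Lifr was the gene that stood apart among the 8 and because these windows differ in base composition. The window of 250 bases before the first start, chr15:7129322-7129571, had 82.4% G and C and 43 CpG dinucleotides, and its last 13 bases, which overlap an annotated exon, are left out. The window before the second start, chr15:7140292-7140541, had 50.8% G and C and 3 CpG dinucleotides. The files count the gene as a whole, so the level of each start was not measured.
Lifr first start, chr15:7129322-7129558: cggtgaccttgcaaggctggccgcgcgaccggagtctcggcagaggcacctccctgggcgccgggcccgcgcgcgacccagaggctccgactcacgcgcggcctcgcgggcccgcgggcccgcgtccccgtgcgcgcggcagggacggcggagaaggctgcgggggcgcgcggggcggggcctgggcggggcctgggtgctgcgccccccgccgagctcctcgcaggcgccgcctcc
Lifr second start, chr15:7140292-7140541: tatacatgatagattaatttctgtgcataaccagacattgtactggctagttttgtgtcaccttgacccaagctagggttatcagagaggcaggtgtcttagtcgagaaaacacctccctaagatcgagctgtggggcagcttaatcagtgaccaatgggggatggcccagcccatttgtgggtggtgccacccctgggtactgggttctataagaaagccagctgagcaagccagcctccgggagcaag

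Lifr was about 3-fold higher in carfilzomib hearts with and without electroacupuncture. Its level was 2.12 and 1.79 FPKM in CFZ_EA, 1.92 and 1.72 FPKM in CFZ, and 0.597 and 0.735 FPKM in control. All 4 carfilzomib libraries lay above both control libraries, and the ranges of CFZ_EA and CFZ overlapped. The counts behind these levels were 1639 and 1605 in CFZ_EA, 1470 and 1291 in CFZ, and 404 and 436 in control. The fold change was 3.08 in CFZ_EA against control (log2 1.62 ± 0.16, SE) and 2.84 in CFZ against control (log2 1.51 ± 0.16). Among all genes tested, 446 had every carfilzomib library above both control libraries (4.32%). Lifr reached the mean of 1 FPKM only through the carfilzomib groups, since control averaged 0.666 ± 0.0980 FPKM (SD, n = 2).

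With 1 library left out in turn, the log2 fold change of Lifr stayed between 1.43 and 1.59 in CFZ against control and between 1.52 and 1.72 in CFZ_EA against control. Without control replicate 2 it was 1.71 in CFZ_EA and 1.59 in CFZ. On the log2(FPKM + 1) scale, which understates the change of low genes, it was 0.83 in CFZ_EA and 0.76 in CFZ. These values describe the difference for which Lifr was chosen and are no separate support for it. Between CFZ_EA and CFZ, a contrast that did not choose the gene, the log2 difference was 0.12 ± 0.15 and was not called (edgeR quasi-likelihood test, Benjamini-Hochberg adjusted p = 0.9997). Summed cardiomyocyte markers were 14901 to 16125 FPKM in the 4 carfilzomib libraries and 14586 and 14357 FPKM in control. Summed epicardial markers were 3.66 to 11.5 FPKM in the carfilzomib libraries and 19.6 and 48.4 FPKM in control. Summed erythroid markers were 1217 to 1760 FPKM in the carfilzomib libraries and 2398 and 2910 FPKM in control. Summed fibroblast markers were 127 to 197 FPKM in the carfilzomib libraries and 203 and 1036 FPKM in control. As with Lifr, the carfilzomib and control libraries did not overlap in these 4 sums, nor in that of macrophage markers (215 to 254 FPKM against 287 and 838 FPKM). Of all single genes tested, every carfilzomib library was above both controls in 4.32% and below both in 10.2%. Some single markers overlapped, such as Pln (198 to 227 FPKM against 218 and 168 FPKM) and Dcn (33.2 to 49.2 FPKM against 43.4 and 63.8 FPKM). In every library 0 markers of these lists were at 0. The part of these marker levels in the level of Lifr was not tested, and in bulk tissue fewer cells of a type and less RNA per cell cannot be told apart.

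**Figure D1:**
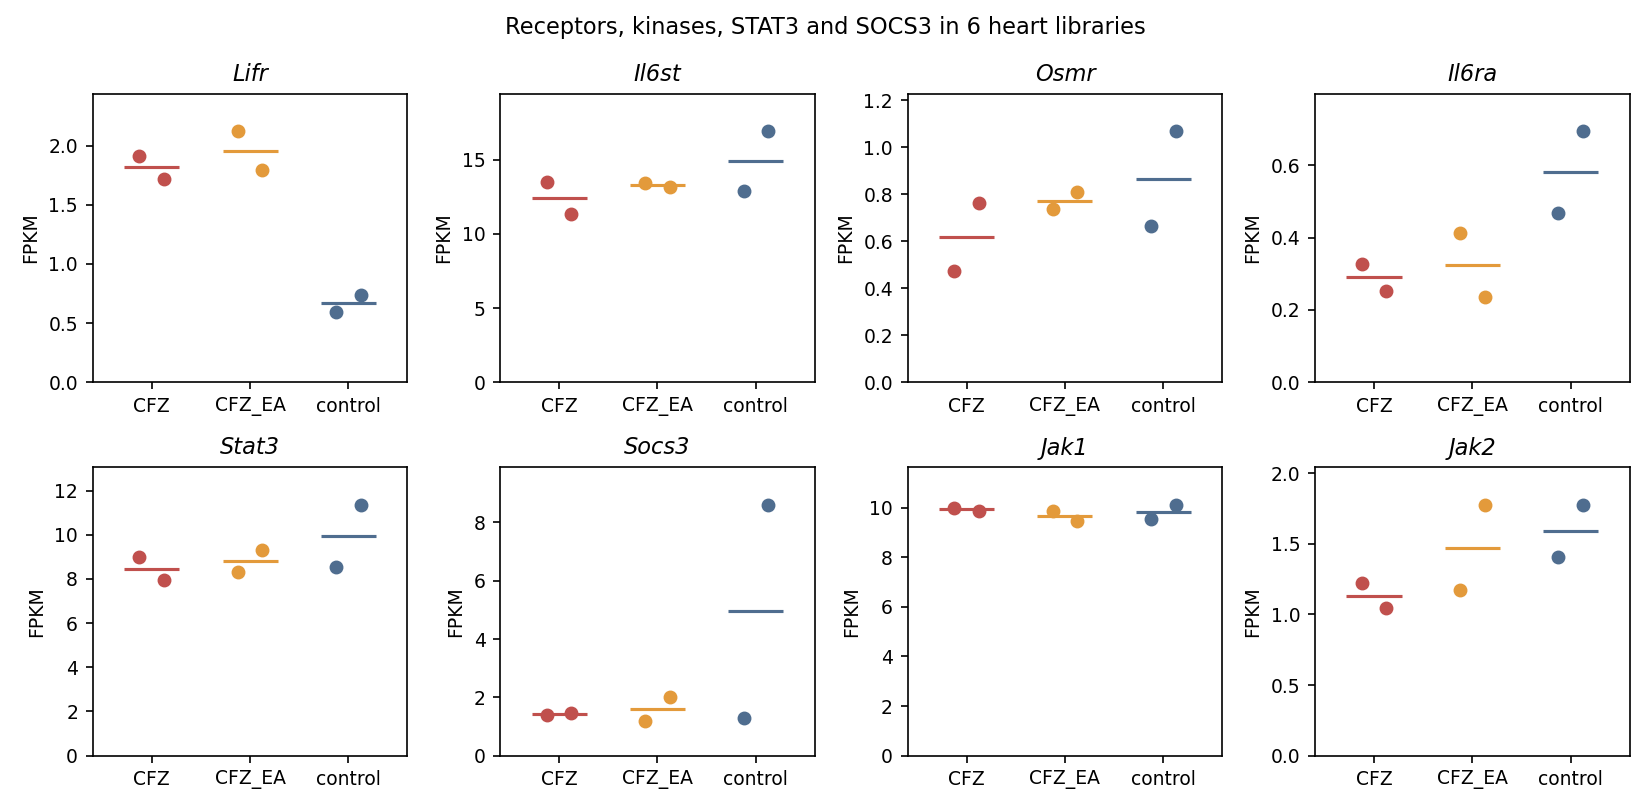
FPKM of the 8 genes (vertical axes, one panel a gene, each starting at 0) in CFZ, CFZ_EA and control hearts. Points are libraries, replicate 1 left of replicate 2, and bars are means of 2; the 4 carfilzomib points of Lifr lie between 1.72 and 2.12 FPKM, above both control points, and control replicate 2 is the highest point of the other 7 genes.

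Il6st, the subunit shared by all these receptors (chr13:112464070-112510086, forward strand), was the most abundant of the 8 genes in every library. It measured 13.5 and 13.2 FPKM in CFZ_EA, 13.5 and 11.3 FPKM in CFZ, and 12.9 and 16.9 FPKM in control. The groups overlapped, with control replicate 2 the highest. Its log2 fold change was -0.09 ± 0.13 in CFZ_EA against control and -0.21 ± 0.13 in CFZ against control (edgeR quasi-likelihood test, Benjamini-Hochberg adjusted p = 0.921 and 0.717). Neither was called, and without control replicate 2 the values were 0.04 and -0.07.

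Set against this shared subunit, the level of Lifr was again higher in the carfilzomib groups, which describes the same values in another form. The Lifr level was 15.8% and 13.6% of the Il6st level in CFZ_EA, 14.2% and 15.2% in CFZ, and 4.62% and 4.34% in control. The control libraries differed little in this ratio, also in replicate 2, whose Il6st and Lifr levels were both above those of replicate 1. Osmr, the alternative partner of gp130, had 5.49% and 6.14% of the Il6st level in CFZ_EA, 3.49% and 6.75% in CFZ, and 5.15% and 6.32% in control, and these ranges overlapped.

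**Figure D2:**
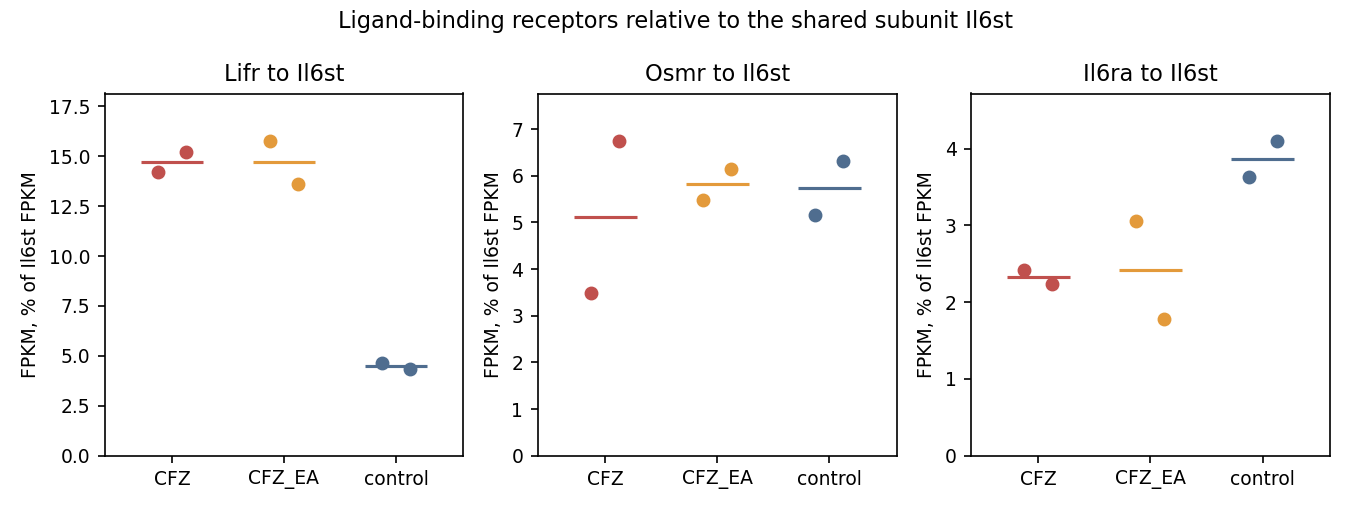
FPKM of Lifr, Osmr and Il6ra as a percentage of the FPKM of Il6st in the same library (vertical axes, starting at 0) in CFZ, CFZ_EA and control hearts. Points are libraries and bars are means of 2; Lifr is at 13.6% to 15.8% in carfilzomib hearts and at 4.62% and 4.34% in control, Osmr overlaps between groups, and Il6ra is lower in all 4 carfilzomib libraries.

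Osmr, the oncostatin M receptor (chr15:6813577-6874969, reverse strand), lies 215.645 kb from Lifr on the same chromosome. It measured 0.739 and 0.809 FPKM in CFZ_EA, 0.472 and 0.765 FPKM in CFZ, and 0.665 and 1.07 FPKM in control. CFZ replicate 1 was lowest, control replicate 2 highest, and the groups overlapped. Its mean was under 1 FPKM, so it was read from a fit of 18273 genes that passed edgeR's own filter on low counts. The log2 fold change was -0.05 ± 0.30 in CFZ_EA against control and -0.35 ± 0.31 in CFZ against control, and 0.23 and -0.08 without control replicate 2. Neither was called by edgeR, beside 0% and 0.0219% of the 18273 genes in these comparisons. Egflam, the gene next to Lifr on its other side at a distance of 8.631 kb, had a log2 fold change of 0.31 ± 0.17 in the mean of both carfilzomib groups against control and was not called (edgeR quasi-likelihood test, Benjamini-Hochberg adjusted p = 0.666).

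Il6ra, the receptor that binds interleukin-6 itself (chr3:89864059-89913196, reverse strand), was the lowest of the 8 genes on average and was lower in every carfilzomib library than in control. It measured 0.412 and 0.235 FPKM in CFZ_EA, 0.326 and 0.253 FPKM in CFZ, and 0.470 and 0.695 FPKM in control, with 255 and 170 counts in CFZ_EA, 201 and 153 in CFZ, and 255 and 331 in control. The groups did not overlap in FPKM, but the lower control library was near the higher CFZ_EA library. Among the 18273 genes, 11.8% had every carfilzomib library below both control libraries. Its log2 fold change was -0.74 ± 0.34 in CFZ_EA against control and -0.89 ± 0.34 in CFZ against control (edgeR quasi-likelihood test, Benjamini-Hochberg adjusted p = 0.900 and 0.590), and neither was called, although the unadjusted p was under 0.05 in CFZ against control (0.0365). Of the 10329 genes tested, a set without Il6ra, 7.72% were at an unadjusted p under 0.05 in CFZ against control. Without control replicate 2 the log2 fold changes of Il6ra were -0.53 and -0.69. Summed macrophage markers, of which 0 of 7 were at 0, were 215 to 254 FPKM in the carfilzomib libraries and 287 and 838 FPKM in control, and their part in the level of Il6ra was not tested.

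In control the LIF receptor stood among the lowest of the 8 genes, and its range of 0.597 to 0.735 FPKM overlapped those of Osmr and Il6ra. In CFZ its lower library, at 1.72 FPKM, was above the higher library of Socs3 (1.45 FPKM), Jak2 (1.22 FPKM) and Osmr (0.765 FPKM). In CFZ_EA the range of Lifr, 1.79 to 2.12 FPKM, overlapped that of Socs3, 1.20 to 2.03 FPKM. Il6st, Jak1 and Stat3 were above Lifr in every library.

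Neither Janus kinase was called in any comparison. Jak1 (chr4:101152367-101265282, reverse strand), the kinase most needed for signalling from gp130, measured 9.85 and 9.47 FPKM in CFZ_EA, 9.98 and 9.87 FPKM in CFZ, and 9.53 and 10.1 FPKM in control. Its 6 libraries lay within a narrow range, and both CFZ_EA libraries were below both CFZ libraries, as were those of 17.7% of all genes tested. For Jak1 the log2 fold change was 0.04 ± 0.10 in CFZ_EA against control and 0.07 ± 0.10 in CFZ against control, and -0.03 ± 0.10 between CFZ_EA and CFZ. The direction of the first turns with library totals and on the log2(FPKM + 1) scale (-0.03 and -0.02). Exons of Jak1 overlap those of Raver2 on the opposite strand, which had 307 to 443 counts per library. The gene models share only a few bases at their ends, so only reads over those bases could not be told apart if counting ignored strand.

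Jak2 (chr19:29251828-29313080, forward strand), which also binds these receptors, measured 1.17 and 1.77 FPKM in CFZ_EA, 1.22 and 1.05 FPKM in CFZ, and 1.40 and 1.78 FPKM in control. Both CFZ libraries were below both control libraries, as were those of 20.8% of all genes tested, whereas CFZ_EA overlapped both groups. The log2 fold change was -0.04 ± 0.25 in CFZ_EA against control, -0.43 ± 0.26 in CFZ against control and 0.39 ± 0.26 in CFZ_EA against CFZ (edgeR quasi-likelihood test, Benjamini-Hochberg adjusted p = 0.987, 0.704 and 0.9997). Without control replicate 2 the values against control were 0.07 in CFZ_EA and -0.33 in CFZ.

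Stat3, the transcription factor of the pathway (chr11:100885098-100939540, reverse strand), was among the more abundant of the 8 genes. It measured 8.34 and 9.30 FPKM in CFZ_EA, 8.98 and 7.94 FPKM in CFZ, and 8.54 and 11.4 FPKM in control. The groups overlapped and control replicate 2 was again the highest. For Stat3 the log2 fold change was -0.10 ± 0.14 in CFZ_EA against control and -0.17 ± 0.14 in CFZ against control (edgeR quasi-likelihood test, Benjamini-Hochberg adjusted p = 0.920 and 0.768). Without control replicate 2 the values were 0.04 and -0.03. These are levels of its messenger RNA, and the phosphorylation that activates the protein was not measured. Exons of Stat3 overlap those of Stat5a, a related factor on the opposite strand. The gene models share just over 71 bases, so reads there cannot be assigned to either gene if counting ignored strand.

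Socs3, the feedback inhibitor and a direct STAT3 target (chr11:117966079-117970047, reverse strand), varied most among the partners, and its difference between groups came from 1 control library. It measured 1.20 and 2.03 FPKM in CFZ_EA, 1.40 and 1.45 FPKM in CFZ, and 1.29 and 8.61 FPKM in control. Control replicate 1 lay within the range of the carfilzomib libraries, and control replicate 2 was 6.69-fold above control replicate 1. Counts were 249 and 487 in CFZ_EA, 288 and 291 in CFZ, and 234 and 1368 in control. For Socs3 the log2 fold change was -1.496 ± 0.78 in CFZ_EA against control and -1.69 ± 0.78 in CFZ against control (edgeR quasi-likelihood test, Benjamini-Hochberg adjusted p = 0.848 and 0.658). Neither was called. Without control replicate 2 the values were 0.32 and 0.13. Without control replicate 1 they were -2.27 and -2.47, and Socs3 was then called, with control represented by replicate 2 alone and assumed to vary like the other groups.

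As a share of the Stat3 level, Socs3 was at 14.4% and 21.8% in CFZ_EA, 15.6% and 18.2% in CFZ, and 15.1% and 75.8% in control. In control replicate 2 the excess of Socs3 over the other libraries was thus larger than that of Stat3.

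In CFZ_EA against control, 0 of 5 tested partners (Il6st, Jak1, Jak2, Stat3 and Socs3) were called by edgeR's quasi-likelihood test, beside 0% of all genes. In CFZ against control it called 0 of the 5, beside 0.029% of all genes tested. In CFZ_EA against CFZ, with Lifr included, 0 of 6 were called, beside 0.0194% of all genes. DESeq2 also called 0 in these 3 comparisons. At an unadjusted p under 0.05 there were 0 in each, beside 5.13%, 7.72% and 3.09% of all genes in CFZ_EA against control, CFZ against control and CFZ_EA against CFZ. With both carfilzomib groups averaged against control, edgeR called 0 of the 5 partners, beside 0.0194% of all genes. At an unadjusted p under 0.05 there was 1, Socs3, beside 8.43% of all genes, with a log2 fold change of -1.59 ± 0.63 and a Benjamini-Hochberg adjusted p of 0.575. Between CFZ_EA and CFZ the log2 differences were 0.11 ± 0.13 for Il6st, 0.07 ± 0.14 for Stat3 and 0.20 ± 0.77 for Socs3, and in the wider fit 0.30 ± 0.31 for Osmr and 0.15 ± 0.34 for Il6ra. The comparisons with control share the same 2 control libraries. With so few genes called anywhere in the table, these counts do not show that the partners were alike in the groups.

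**Figure D3:**
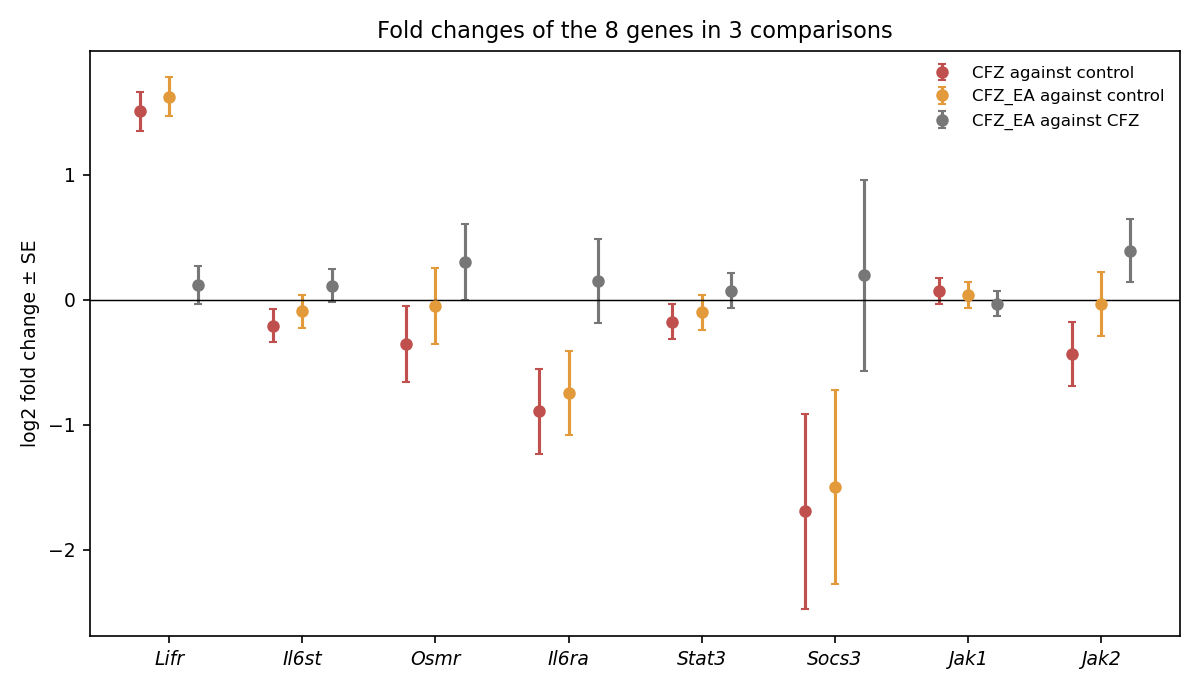
Log2 fold change with its standard error (vertical axis) of the 8 genes (horizontal axis) in CFZ against control, CFZ_EA against control and CFZ_EA against CFZ. Osmr and Il6ra come from the fit of 18273 genes and the others from that of 10329; Lifr, which was chosen for this difference, is at 1.51 and 1.62 against control, and Socs3 at -1.69 and -1.496 has the widest error.

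The ligands of these receptors were scarce. Of 10 ligand and ligand-subunit genes, 2 reached a mean of 1 FPKM, and 0 of these 2 were called in any comparison by edgeR or DESeq2. Ctf1, which encodes cardiotrophin-1, a ligand of the LIF receptor, measured 3.00 and 2.74 FPKM in CFZ_EA, 3.62 and 3.19 FPKM in CFZ, and 2.99 and 2.84 FPKM in control. Both CFZ libraries were above the other 4, and the share of all genes with this pattern is not given here. Its log2 fold change was 0.03 ± 0.19 in CFZ_EA against control and 0.27 ± 0.19 in CFZ against control (edgeR quasi-likelihood test, Benjamini-Hochberg adjusted p = 0.984 and 0.735), and -0.07 and 0.17 without control replicate 2. Ebi3, a subunit of interleukin-27, had -1.11 ± 0.43 and -0.45 ± 0.42 in CFZ_EA and CFZ, with 1.92 FPKM in control replicate 2 and 0.498 to 0.996 FPKM elsewhere. Without that library the values of Ebi3 were -0.57 and 0.09. Ebi3 reached the mean of 1 FPKM only through that library.

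Lif itself measured 0.121 and 0.115 FPKM in CFZ_EA, 0.0730 and 0.151 FPKM in CFZ, and 0.152 and 0.271 FPKM in control. Control replicate 2 was the highest, and control replicate 1 and CFZ replicate 2 were nearly equal. Clcf1, another listed ligand, measured 0.636 and 0.733 FPKM in CFZ_EA, 0.701 and 0.637 FPKM in CFZ, and 0.431 and 0.555 FPKM in control. Its carfilzomib libraries thus lay above both control libraries, as did those of 4.32% of the genes tested, a set without Clcf1. Il6 had 4 and 0 counts in CFZ_EA, 0 and 0 in CFZ, and 12 and 43 in control. Over the groups, against a floor of 3 counts per library, Il6 was at least 11.5-fold lower in CFZ than in control per unit of library size. Of the 55 control counts 43 were in control replicate 2, and against control replicate 1 alone Il6 was at least 4.48-fold lower. Osm had 4 and 4 counts in CFZ_EA, 0 and 4 in CFZ, and 8 and 63 in control. Low counts in this table are often multiples of 4 and may be less than 1 read each, so such bounds may be too high, and they cover counting error only.

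Other receptors of the family were measured beside these. Of 4 genes 3 were tested and 0 were called in any comparison by edgeR or DESeq2. Il11ra1, the interleukin-11 receptor, was more abundant than Il6st in all 6 libraries, with 16.1 and 16.9 FPKM in CFZ_EA, 16.4 and 15.7 FPKM in CFZ, and 15.7 and 20.4 FPKM in control, and the groups overlapped. Cntfr, the receptor of ciliary neurotrophic factor, which joins gp130 and the LIF receptor, measured 1.48 and 3.19 FPKM in CFZ_EA, 0.914 and 0.801 FPKM in CFZ, and 1.92 and 1.97 FPKM in control. CFZ was below both other groups, and CFZ_EA spanned the control libraries. Both CFZ libraries were below both control libraries in 20.8% of all genes tested. Its log2 difference was 1.45 ± 0.39 in CFZ_EA against CFZ, -1.12 ± 0.39 in CFZ against control and 0.33 ± 0.38 in CFZ_EA against control, and none was called (edgeR quasi-likelihood test, Benjamini-Hochberg adjusted p = 0.9997, 0.608 and 0.904). Summed atrial markers, 0 of 7 at 0, were 972 and 5720 FPKM in CFZ_EA, 341 and 209 FPKM in CFZ, and 2856 and 1617 FPKM in control, and their part in the level of Cntfr was not tested.

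Of 8 other kinases and STAT factors, 7 were tested and edgeR and DESeq2 called 0 in any comparison. With both carfilzomib groups averaged against control, 3 were above 0 and 4 below, with a median log2 fold change of -0.05. Without control replicate 2, 4 were above 0 and 3 below, with a median of 0.03. Stat2, a factor of the interferon response, measured 1.91 and 1.74 FPKM in CFZ_EA, 1.88 and 1.40 FPKM in CFZ, and 2.37 and 2.35 FPKM in control, so the carfilzomib libraries lay below both control libraries, as did those of 10.2% of all genes tested. Its log2 fold change was -0.30 ± 0.18 in CFZ_EA against control and -0.48 ± 0.18 in CFZ against control (edgeR quasi-likelihood test, Benjamini-Hochberg adjusted p = 0.848 and 0.617). In the same comparisons Tyk2, another Janus kinase, had -0.26 ± 0.20 and -0.32 ± 0.20, and -0.03 and -0.09 without control replicate 2. Stat5a had 0.28 ± 0.17 and 0.16 ± 0.17, and 0.21 and 0.09 without that library.

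Of 16 other inhibitors and phosphatases, 13 were tested and edgeR and DESeq2 called 0 in any comparison. In the same average 5 were above 0 and 8 below, with a median of -0.02. Ptpn6, a phosphatase of blood cells that removes phosphate from Janus kinases, measured 2.07 and 2.49 FPKM in CFZ_EA, 2.27 and 2.47 FPKM in CFZ, and 2.58 and 6.62 FPKM in control. Control replicate 2 was again far above the rest. Its log2 fold change with both carfilzomib groups averaged was -0.89 ± 0.33, and -0.16 without control replicate 2. Ptpn1, a related phosphatase, had -0.36 ± 0.18 and was at -0.06 without that library. Socs2, another feedback inhibitor, had 0.23 ± 0.25.

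Most of the listed genes that STAT3 is known to switch on were, like Socs3, highest in control replicate 2. The list of 28 was chosen with earlier results of these data known, and 26 were tested. With both carfilzomib groups averaged against control, 24 of the 26 had log2 fold changes below 0, with a median of -0.44 beside -0.0020 over all genes tested. EdgeR called 0 of them. At an unadjusted p under 0.05, 7 were lower, Saa3 among them, beside 6.68% of all genes. Saa3 and Fos reached the mean of 1 FPKM only through control replicate 2, so their place in these counts is no separate result. DESeq2 called 1, Timp1 (adjusted p = 0.0237). In CFZ_EA against control 23 were below 0 with a median of -0.47, in CFZ against control 24 with a median of -0.55, and in CFZ_EA against CFZ 16 were above 0 with a median of 0.11, where all genes had -0.0084. With both groups averaged and without control replicate 2, 20 of the 26 were below 0 and the median was -0.13. Without that library 15 were below 0 in CFZ_EA against control, with a median of -0.06, and 19 in CFZ against control, with a median of -0.17.

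The listed target genes were mostly highest in 1 library. In control replicate 2, 24 of the 26 (92.3%) had their highest level among the 6 libraries, beside 40.7% of all genes tested. In that library 13 of the 26 (50.0%) were more than 2-fold above control replicate 1, beside 6.49% of all genes. Saa3 and Fos, which passed the filter only through that library, are in both counts. Timp1, an inhibitor of matrix metalloproteinases, measured 2.78 and 4.604 FPKM in CFZ_EA, 1.91 and 2.10 FPKM in CFZ, and 6.49 and 105 FPKM in control. Its carfilzomib libraries were below both control libraries, also the lower one, as were those of 10.2% of all genes tested. The log2 fold change of Timp1 was -4.23 ± 0.90 (edgeR quasi-likelihood test, Benjamini-Hochberg adjusted p = 0.543), and -1.26 without control replicate 2.

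The acute-phase genes Serpina3n, Hp and Saa3 were also far higher in control replicate 2 than elsewhere. Serpina3n, a protease inhibitor, measured 2.71 and 3.16 FPKM in CFZ_EA, 1.63 and 3.63 FPKM in CFZ, and 4.88 and 72.4 FPKM in control. Its carfilzomib libraries were thus below both control libraries, as in 10.2% of all genes tested. Hp, which encodes the haemoglobin-binding protein haptoglobin, was at 66.8 FPKM in control replicate 2 and at 0.390 to 1.84 FPKM in the other 5 libraries. Saa3, a serum amyloid gene, was at 8.41 FPKM in control replicate 2 and at 0 to 0.104 FPKM in the other 5. In Hp and Saa3 control replicate 1 lay within the range of the carfilzomib libraries. Their log2 fold changes were -3.67 ± 0.89, -4.70 ± 1.23 and -6.30 ± 1.65, and -0.81, -0.14 and -0.03 without control replicate 2.

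Smaller differences were seen in Tnfrsf1a, a receptor of tumour necrosis factor, and Bcl3, a partner of NF-kB. Tnfrsf1a measured 18.2 and 20.0 FPKM in CFZ_EA, 19.8 and 20.3 FPKM in CFZ, and 23.4 and 37.0 FPKM in control. The carfilzomib libraries of Tnfrsf1a lay below both control libraries, as did those of 10.2% of all genes tested. Its log2 fold change was -0.55 ± 0.16, and -0.27 without control replicate 2. Bcl3 had -0.59 ± 0.21, and -0.26 without it. Neither was called (edgeR quasi-likelihood test, Benjamini-Hochberg adjusted p = 0.543 and 0.547). The summed fibroblast and macrophage markers, 0 of 8 and 0 of 7 at 0, are several times higher in control replicate 2 than elsewhere, as given above, and their part in the levels of Socs3, Ptpn6 and the target genes was not tested.

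**Figure D4:**
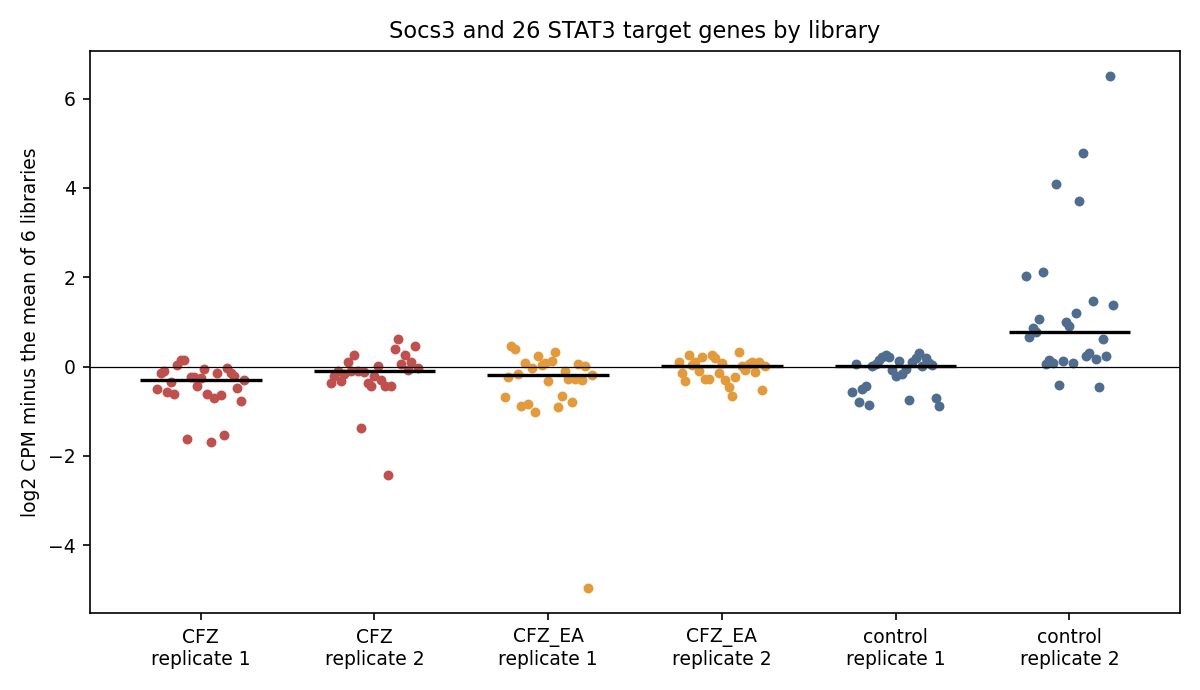
Log2 CPM of Socs3 and 26 STAT3 target genes minus each gene's mean over the 6 libraries (vertical axis) for each library (horizontal axis). Points are genes and bars are medians; the median is 0.77 in control replicate 2, with 25 of 27 genes above 0, and -0.30 to 0.02 in the other 5 libraries.

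The letters before the annotated starts of the genes were read for the spacing of bases that STAT factors bind, TTCNNNGAA, which reads the same on both strands. RefSeq windows of 250 bases before each annotated start (GRCm38.p6) were searched. The motif was in 1 of 9 windows of the 8 genes, that of Socs3, and in 3 of 31 windows of the 24 target genes found in the table, beside 7.02% of all 32851 windows. Neither window of Lifr held it, which says only that these letters are not in those windows. The windows of Socs3, Osmr and Lifr lie inside their own gene models, whose first bases are further upstream than the RefSeq starts. The Socs3 motif is thus before the RefSeq start but within the gene model. The part of the Socs3 window outside annotated exons is shown, with the motif in capitals 154 bases before the start, because Socs3 was the partner that varied most. Below it are the surroundings of the motif before 3 target genes, 36, 90 and 244 bases from the starts of Fgl2, Irf1 and Tnfrsf1a.
Socs3, chr11:117969452-117969616, reverse strand: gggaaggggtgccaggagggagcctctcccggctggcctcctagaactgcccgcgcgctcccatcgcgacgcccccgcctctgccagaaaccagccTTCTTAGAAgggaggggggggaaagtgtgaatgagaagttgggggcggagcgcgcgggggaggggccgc
Fgl2, chr5:21372627-21372656, forward strand: gcccgcccttTTCTGGGAActcagaacgcc
Irf1, chr11:53769914-53769943, forward strand: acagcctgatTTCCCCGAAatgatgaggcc
Tnfrsf1a, chr6:125349473-125349498, forward strand: gcttccTTCCGTGAAattgacaacag

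A match is a description of the letters and not of a bound site. Of the matched genes shown, Socs3 and Tnfrsf1a had their highest level in control replicate 2, as did Fgl2 (6.07 FPKM, beside 3.39 to 5.82 FPKM in the other libraries) and Irf1 (9.41 FPKM, beside 6.52 to 8.90 FPKM). With or without the motif, 24 of the 26 tested target genes were highest in that library, so these levels do not bear on the motif.

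Genes whose levels followed that of Lifr most closely over the 6 libraries were Itfg2, Golga1, Rnf14, Mllt6, Riok3 and Dusp18, with Pearson's r of log2 CPM between 0.973 and 0.993. The points share their libraries, and the 2 control libraries lie apart from the 4 carfilzomib libraries, so r mostly reflects that gap. Golga1, a protein of the Golgi, measured 1.66 and 1.604 FPKM in CFZ_EA, 1.51 and 1.45 FPKM in CFZ, and 0.684 and 0.923 FPKM in control. Rnf14, a ubiquitin ligase, measured 14.2 and 12.2 FPKM in CFZ_EA, 13.4 and 12.2 FPKM in CFZ, and 7.83 and 9.99 FPKM in control. In both genes every carfilzomib library lay above both control libraries, as did those of 4.32% of all genes tested. Their choice by likeness to Lifr made this close to given, so it is no separate result. With both groups averaged the log2 differences from control were 1.01 for Golga1 and 0.61 for Rnf14, beside 1.57 for Lifr.

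The 4 genes most like Socs3 were Rfc5, Jpt2, Il4ra and Dok2, with r between 0.993 and 0.997. Each was highest in control replicate 2, which their choice by likeness to Socs3 made close to given. Il4ra, the interleukin-4 receptor and one of the STAT3 targets above, measured 2.82 and 3.62 FPKM in CFZ_EA, 3.01 and 2.90 FPKM in CFZ, and 3.01 and 7.14 FPKM in control, so its r rests on 1 library.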

How the data were processed

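Messenger RNA of 6 mouse heart libraries was sequenced in a strand-marking dUTP protocol, per the labels. GRCm38 is the build in the submitters' processing notes, which also list StringTie 1.3.4d, HISAT2 2.0.4 and cutadapt 1.9 but give no roles. No source used here gives the annotation release or says if counting used strand. The authors' FPKM values and a column of counts per library are in the deposited table, per the file headers. These deposited values, all whole numbers, were taken as estimated counts; among counts of 1 to 20, 42.2% to 43.3% could be divided by 4, where 25% would be by chance, so 1 count may be less than 1 read. Gene coordinates of the 8 genes were the same in GENCODE M21.

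The 10329 genes with a mean of at least 1 FPKM were tested with edgeR 4.0.16 (R 4.3.3) by the quasi-likelihood test on counts, with TMM factors of 0.955 to 1.08, in 1 model with group as its term over all 6 libraries (3 residual degrees of freedom) and Benjamini-Hochberg adjustment. Osmr and Il6ra, below that filter, were read from a fit of 18273 genes kept by filterByExpr. For 2 libraries in each group the smallest exact p is 0.333, so no exact test was used. Depth was 50013990 to 75742448 counts per library, and 3 counts, the floor for a count of 0, were 0.0396 to 0.0600 CPM; floors cover counting error only. Steps were tested on simulated data. Alternatives were filterByExpr, no filter, DESeq2 size factors, library totals, no mitochondrial genes, only the groups compared, the replicate number as a block, each library left out, limma 3.58.1 on log2(FPKM + 1) and log2(FPKM + 0.1), DESeq2 1.42.0, and, added after seeing the data, counts divided by 4 and the bound of Il6 without control replicate 2.

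The 8 genes and the 5 lists (10 ligands, 4 other receptors, 8 other kinases and STATs, 16 inhibitors and phosphatases, 28 STAT3 targets) were chosen with earlier results of these data known. Named from each list were up to 6 tested genes, called ones first and then those with the smallest p in the mean of both carfilzomib groups against control, of which the text gives a part and 1 is not reported here, besides the 6 and 4 genes most like Lifr and Socs3 by Pearson's r of log2 CPM (prior count 0.5) and genes next to a member. Lif, Il6 and Osm are named as the defining ligands, and Fgl2 and Irf1 for the motif. These 5 were added after their values were seen, as were Clcf1, Fos and the single markers Pln and Dcn.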

Additional observations from a re-analysis of the deposited data

How the results depend on the processing

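Lifr kept its direction against control under every alternative run. It was chosen for that direction and its carfilzomib libraries did not overlap control, so this was close to given in advance. For the other 7 genes some directions turned. In CFZ_EA against control, Jak1 had -0.030 with library totals, -0.022 on log2(FPKM + 1) and -0.024 on log2(FPKM + 0.1), and with both carfilzomib groups averaged -0.012, -0.0040 and -0.0043. With 1 library left out, log2 fold changes ran as follows. In CFZ against control, Socs3 ran between -2.47 and 0.13. In CFZ_EA against control, Il6st ran between -0.21 and 0.042, Osmr between -0.29 and 0.23, Stat3 between -0.22 and 0.044, Socs3 between -2.27 and 0.32 and Jak2 between -0.39 and 0.25. In CFZ_EA against CFZ, Osmr ran between -0.052 and 0.75, Il6ra between -0.29 and 0.49, Stat3 between -0.025 and 0.18, Socs3 between -0.25 and 0.54 and Jak1 between -0.072 and 0.017. With both carfilzomib groups averaged, Osmr ran between -0.44 and 0.075, Stat3 between -0.26 and 0.0070 and Socs3 between -2.37 and 0.23. The cause was not tested.

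Over the whole table DESeq2 called more genes than edgeR: 138 in CFZ against control (3 with edgeR), 51 in CFZ_EA against control (0), 55 in CFZ_EA against CFZ (2) and 107 with both carfilzomib groups averaged (2). DESeq2 called 1 STAT3 target in CFZ against control and 1 with both groups averaged. Counts divided by 4 gave 1 gene in CFZ against control, 1 in CFZ_EA against CFZ and 0 with both groups averaged. The fit of only the groups compared gave 0 in CFZ against control, and limma on log2(FPKM + 1) gave 1 with both groups averaged. With 1 library left out, genes called ran from 0 to 332 in CFZ against control, 0 to 231 in CFZ_EA against control, 0 to 4 in CFZ_EA against CFZ and 0 to 426 with both groups averaged. The highest counts against control came without control replicate 1, where control was replicate 2 alone. STAT3 targets called ran from 0 to 8, 0 to 5 and 0 to 10 in the 3 comparisons with control, inhibitors from 0 to 1 in CFZ against control and with both groups averaged, and partners of Lifr from 0 to 1, Socs3, in each of the 3.

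Replicate numbers shared between groups gave no clear sign of pairing: the deviations of replicate 1 from its group correlated at 0.10 between CFZ and CFZ_EA, -0.06 between CFZ and control and -0.02 between CFZ_EA and control. With 2 libraries in each group, and control replicate 2 far from the rest, these values cannot exclude pairing. With the replicate block, 0 of the 5 tested partners were called in any comparison with control and 0 of 6 genes, with Lifr, in CFZ_EA against CFZ, and genes called were 2 in CFZ against control, 0 in CFZ_EA against control, 2 in CFZ_EA against CFZ and 1 with both groups averaged.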
